A study of Rattus norvegicus with 9 samples.

Results

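The genes described here are those whose RNA in the cerebral cortex of newborn rats lay apart at the lower of 2 dietary concentrations of 4-methylimidazole (4-MeI), outside the levels of both the control group and the higher concentration. Hsd:Sprague Dawley rats were fed diets with 0 ppm (Control), 750 ppm or 2500 ppm of 4-MeI continuously over successive breedings and generations. The title of the series adds gestational exposure and maternal seizures. Cortex was taken from F2b pups on postnatal day 4, with a single pup from each litter, and 3 pups of each group were profiled on Affymetrix Rat Genome 230 2.0 arrays, 9 arrays in all. The sex of the pups and the seizure history of each dam are not given in the sources used here. The contrast was the mean of the 3 arrays of 750 ppm minus the average of the Control and 2500 ppm group means. It was fitted to 21729 probe sets, and a gene was counted as a member where the 3 arrays of 750 ppm lay all above or all below the 6 other arrays. On that rule 578 of 11606 named genes had at least 1 such probe set. The Control arrays lay outside all others for 900 genes and the 2500 ppm arrays for 1133. All levels are log2 intensities, so a difference of 1 is a factor of 2 in intensity.

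4-MeI is a small nitrogen-containing ring compound that forms when food browns and that causes convulsions in animals at high doses. On postnatal day 4 the rat cortex is still being built: upper layer neurons are settling, the transient subplate neurons below the cortical plate are present, synapses are few, and oligodendrocyte precursors are only starting to differentiate. A level that moves at a lower dose and not at a higher dose is called a non-monotonic response.

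The arrays were alike in overall intensity, with medians between 7.67 and 7.71. Cortical markers were present, with mean levels from 9.38 for Slc17a7, the vesicular glutamate transporter of cortical neurons, to 13.0 for the neuronal transcription factor gene Neurod6. Replicate 3 of 750 ppm correlated best (0.993) with replicate 3 of 2500 ppm, and Control replicate 3 had the lowest best correlation of any array (0.991). Arrays also differed in markers of tissue adjacent to the cortex. The mean of 17 markers of striatal projection neurons, relative to the mean over the 9 arrays, was -0.82 in replicate 3 of 750 ppm and 0.62 and 0.53 in the other 750 ppm arrays. The 3 prime minus 5 prime difference of the beta-actin control probe sets, a measure of RNA integrity, was lower on all 3 arrays of 750 ppm (0.89, 0.89 and 0.83) than on the 6 others (0.91 to 1.04). For hexokinase this difference overlapped between groups and was 0.080 above the average of the others, and its 5 prime probe set was lowest on all 3 arrays of 750 ppm (-0.18). That of GAPDH overlapped as well (-0.055). The part of tissue content and of RNA integrity in the results was not tested.

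Cplx3, a gene of synaptic vesicle release, fell at 750 ppm against both other groups, as did an unnamed probe set, with calls that depended on the arrays included. C1ql3, which encodes a secreted organiser of synapses, lay above the average of the other groups. In the contrast these 3 probe sets passed an adjusted p of 0.05 (limma, Benjamini-Hochberg over all probe sets tested), which is 0.0138% of those tested. Before adjustment, 2221 probe sets (10.2%) had a p under 0.05, against 1086 expected if nothing differed. Of these, 1290 (5.94%) were higher and 931 (4.28%) lower. A stricter test asked that 750 ppm differ from Control and from 2500 ppm in the same direction, taking the larger of the 2 p-values. It passed 2 probe sets (0.0092%) after adjustment, and 425 (1.96%) before it, 213 higher and 212 lower. The contrast count was 0 without replicate 2 of 750 ppm and 394 without replicate 3 of 750 ppm. The stricter count was 0 when any Control array, replicate 2 of 750 ppm, or replicate 1 or 3 of 2500 ppm was left out, and 12 without replicate 3 of 750 ppm.

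The 3 arrays of 750 ppm lay outside all others for 792 probe sets (3.64%). Of these, 409 (1.88%) were above and 383 (1.76%) below. The Control arrays did so for 1269 probe sets (5.84%) and the 2500 ppm arrays for 1658 (7.63%). The 3 counts share arrays. The count for 750 ppm was 2084 without its replicate 2, 3423 without its replicate 3 and 1362 without Control replicate 2, and the other 2 counts were not repeated in this way. Among the 409 above, the 2500 ppm mean was higher than the Control mean in 241 and lower in 168. Among the 383 below, it was lower than Control in 168 and higher in 215. In 95 of the 792 the 2500 ppm and Control groups themselves differed at an unadjusted p under 0.05. The distance from the 750 ppm mean to the nearer group mean had a median of 0.14 among those above and -0.15 among those below, and 99 probe sets had a distance of at least 0.3. The split of directions followed the scaling: after centring every array on its median, 202 were above and 711 below, and after a second quantile normalization 320 were above and 486 below.

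**Figure D1:**
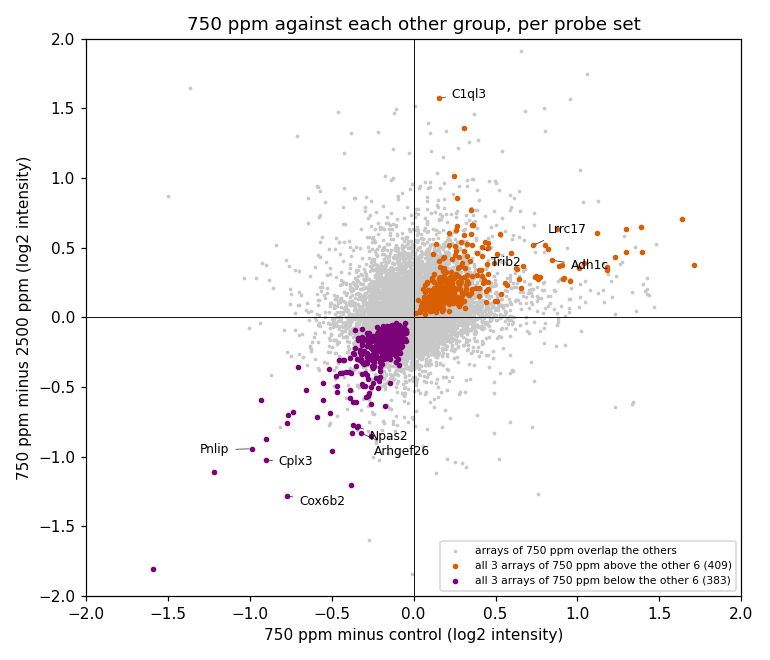
Each point is a probe set, with its 750 ppm minus Control difference on the horizontal axis and its 750 ppm minus 2500 ppm difference on the vertical axis, both in log2 intensity. Orange points (409) have all 3 arrays of 750 ppm above the 6 others and purple points (383) have them all below. Cplx3 lies near -0.90 and -1.03, while C1ql3 lies at 0.16 and 1.58, close to Control and far from 2500 ppm. The plot leaves out 2 probe sets beyond its range.

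Cplx3 encodes a complexin, a small protein that binds the assembled SNARE complex and controls fusion of synaptic vesicles. In the cortex it is known as a marker of subplate and layer 6b neurons. Its level (probe set 1384779_at) was 8.32, 8.08 and 8.27 in the Control pups, 7.48, 7.21 and 7.28 at 750 ppm, and 8.37, 8.32 and 8.36 at 2500 ppm. The 750 ppm pups lay below all others with a wide gap, and the Control and 2500 ppm pups were close together. Cplx3 fell by 0.96 in the contrast (SE 0.075, n = 3 against 6, adjusted p = 0.00505). The difference was -0.90 from Control and -1.03 from 2500 ppm (SE 0.087 each, 2 differences that share the 750 ppm arrays), and the adjusted larger p was 0.031. A dim second probe set, 1391400_at, below the filter on mean level, gave 5.03, 4.81 and 4.88 in Control, 4.60, 4.58 and 4.64 at 750 ppm, and 4.81, 4.95 and 4.88 at 2500 ppm. It too was lowest on the 3 arrays of 750 ppm. The contrast passed in 19 of 20 settings, the reported one included, and was lost without replicate 2 of 750 ppm (-0.91, adjusted p = 0.0635).

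Cplx3 lies on chromosome 8 of the GRCr8 assembly, from 66899438 to 66906200, on the minus strand. The 250 bases before its annotated start are shown because they hold an E-box, the letters CACGTG (the same on both strands), to which transcription factors of the clock family such as NPAS2 bind, and Npas2 is itself among the lower genes. The second sequence is the same stretch before the start of Nr1d1 that holds an E-box. Nr1d1 encodes the clock repressor REV-ERB alpha and is described with Npas2. A second annotated start of Nr1d1, and the windows of Npas2 and Dbp, hold 0 E-boxes. Both are RefSeq sequences in GRCr8, read 5′ to 3′ on the minus strand, at chr8:66906201-66906450 and chr10:84229455-84229704, with the E-box in capitals.
Cplx3: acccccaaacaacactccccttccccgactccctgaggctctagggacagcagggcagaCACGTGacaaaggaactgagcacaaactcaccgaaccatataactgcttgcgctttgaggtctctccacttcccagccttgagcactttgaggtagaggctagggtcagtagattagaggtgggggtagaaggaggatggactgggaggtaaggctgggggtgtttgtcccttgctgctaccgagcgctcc
Nr1d1: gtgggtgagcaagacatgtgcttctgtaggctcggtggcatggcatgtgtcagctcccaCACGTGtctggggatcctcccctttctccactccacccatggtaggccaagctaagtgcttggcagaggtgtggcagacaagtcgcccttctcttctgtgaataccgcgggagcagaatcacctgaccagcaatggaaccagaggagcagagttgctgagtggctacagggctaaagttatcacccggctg
In each the E-box starts at position -191 from the annotated start. Of 33469 rat promoter windows, from 250 bases before to 50 after a start, 2148 (6.42%) hold this E-box. Of the 12 named lower genes, 10 matched a window and 2, Cplx3 and Ankrd12, held it, while of the 12 named higher genes 11 matched and 0 held it. A match of letters is a description and shows no binding, and a link between Npas2 and Cplx3 was not tested.

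The other complexins did not share the pattern of Cplx3. Cplx2, the form found at most forebrain synapses, was 11.23, 11.19 and 11.25 in Control, 10.78, 11.04 and 11.23 at 750 ppm and 10.84, 11.04 and 10.97 at 2500 ppm, with a contrast of -0.07 (SE 0.093, adjusted p = 0.806). Cplx1, with probe sets at mean levels of 7.12 and 11.89 at 750 ppm, gave -0.03 (SE 0.053) and -0.02 (SE 0.069), with adjusted p of 0.844 and 0.929. The 750 ppm arrays overlapped the others for each of these probe sets. For Cplx2 the 2500 ppm arrays all lay below the Control arrays, with a difference of -0.27 between the group means. The small contrasts of Cplx1 and Cplx2 changed sign when single arrays were left out. A difference between the complexins was not tested.

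The unnamed probe set 1383612_at stood further apart than any named gene. It was 11.21, 11.20 and 10.97 in Control, 9.45, 9.53 and 9.61 at 750 ppm and 11.13, 11.76 and 11.13 at 2500 ppm. The 750 ppm arrays lay more than a full log2 unit below the lowest other array. It fell by 1.70 (SE 0.138, adjusted p = 0.00505), with an adjusted larger p of 0.031. The annotation used here gives it no gene symbol.

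C1ql3, a C1q-like protein secreted at synapses, passed the contrast through its distance from 2500 ppm. Its probe set 1378362_at was 10.34, 10.26 and 10.29 in Control, 10.38, 10.53 and 10.46 at 750 ppm, and 9.05, 8.64 and 8.95 at 2500 ppm. The 750 ppm arrays were the highest, but only just above Control, and the 2500 ppm arrays were far below both. The contrast was 0.87 (SE 0.087, adjusted p = 0.0212), made up of 0.16 against Control (unadjusted p = 0.149) and 1.58 against 2500 ppm. It lies on chromosome 17 from 81028418 to 81038244. Its other probe set, 1375500_at, had a contrast of -0.04, and the call was made in 10 of 20 settings, the reported one included. It was lost after either rescaling of the arrays, with the replicate block, against a straight line between the doses, without any Control array, without replicates 1 and 2 of 750 ppm and without replicate 3 of 2500 ppm (adjusted p up to 0.139 when single arrays were left out).

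**Figure D2:**
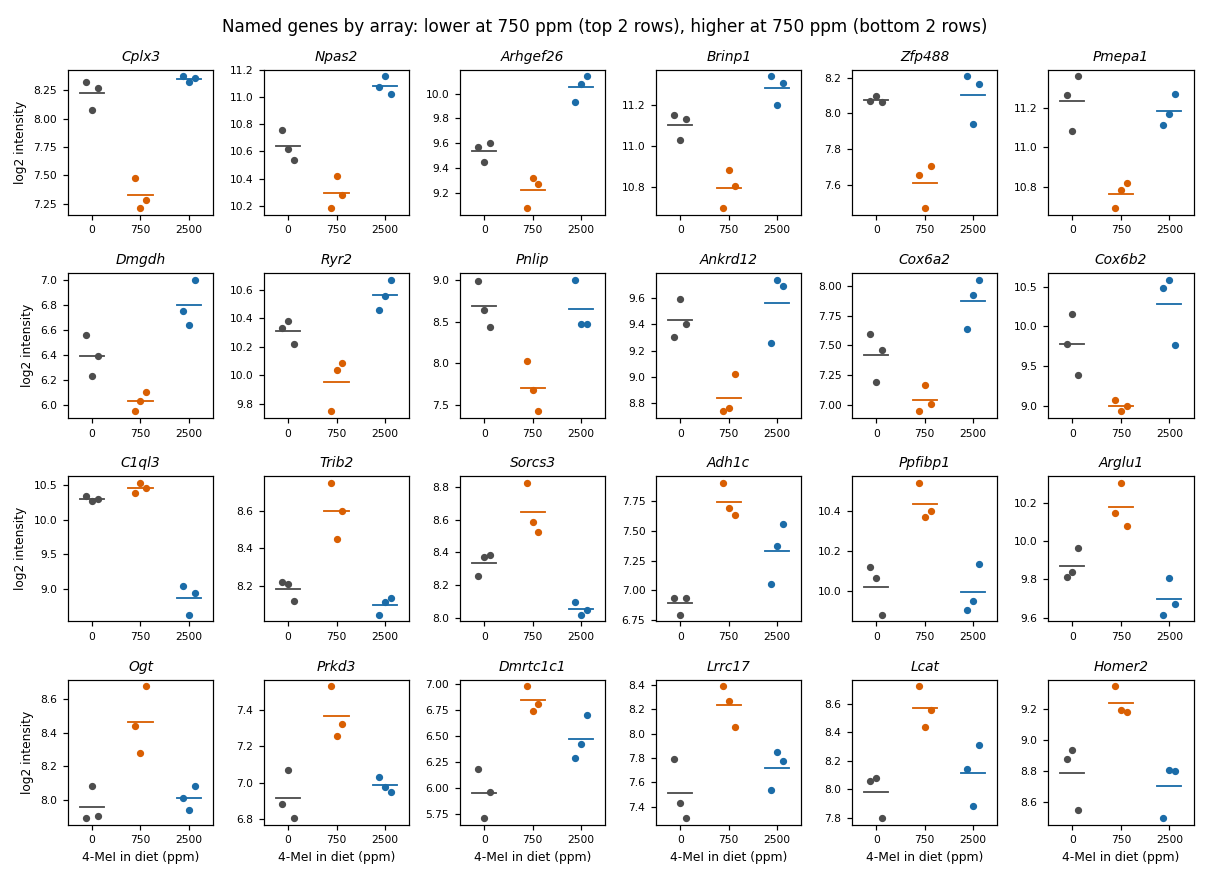
Log2 intensity of the 24 genes named by rule, 1 panel per gene, with each point an array and each bar a group mean, at 0, 750 and 2500 ppm of 4-MeI in the diet. Vertical axes differ between panels and do not start at 0. In every panel the 3 points of 750 ppm lie outside the 6 others, which the rule required, and Cplx3 has the smallest p of the 24.

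Around Cplx3, the release machinery went both ways. Of 36 measured genes of synaptic vesicle release, 15 were above the average of the other groups and 21 below, with a median of -0.01, while 56.7% of all 11606 genes were above and their median was 0.015. The 3 arrays of 750 ppm were above all others in 1 of the 36 and below in 2, against 2.36% and 1.47% of all genes. Before adjustment, at a p under 0.05, 3 were higher and 2 lower (6.15% and 3.47% of all genes), and only Cplx3 passed the adjusted threshold, as did 0.0172% of all genes. Syt11, a synaptotagmin that does not bind calcium, was 7.39, 7.51 and 7.26 at 750 ppm against 7.63 to 7.77 in Control and 7.59 to 7.68 at 2500 ppm (contrast -0.29, SE 0.065, adjusted p = 0.265). Syn2, a synapsin that tethers vesicles, had a contrast of 0.45 (SE 0.123, adjusted p = 0.339) with overlapping arrays.

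Nsf, the ATPase that takes spent SNARE complexes apart, was higher at 750 ppm on all 3 of its probe sets. Probe set 1369690_at was 10.98, 11.10 and 11.04 in Control, 11.31, 11.31 and 11.28 at 750 ppm and 10.69, 10.53 and 10.79 at 2500 ppm (contrast 0.44, adjusted p = 0.110). Probe set 1369689_at was 9.57, 9.66 and 9.61 in Control, 9.97, 9.87 and 9.86 at 750 ppm and 9.42, 9.18 and 9.49 at 2500 ppm (0.41, adjusted p = 0.175). Probe set 1372528_at was 11.58, 11.64 and 11.58, then 12.06, 11.93 and 11.69, then 11.54, 11.45 and 11.52 (0.34, adjusted p = 0.265). On each probe set the groups ran in the order 2500 ppm, Control, 750 ppm by their means, and the 750 ppm arrays overlapped with no other array. None passed the adjusted threshold in limma, and the first 2 probe sets were singled out after their values were seen.

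Subplate markers as a whole did not follow Cplx3. Of 19 measured genes, 7 were above and 12 below, with a median of -0.04 (from -0.10 without replicate 2 of 750 ppm to 0.06 without replicate 3 of 750 ppm), and 4 were higher and 4 lower by the unadjusted p (6.15% and 3.47% of all genes). The mean of the list per array overlapped between groups, at 0.16, 0.12 and -0.27 for 750 ppm, 0.04 to 0.11 for Control and -0.15 to -0.01 for 2500 ppm. Ccn2, a secreted matricellular factor and classical subplate marker, was 10.04, 10.00 and 9.83 in Control, 9.68, 9.82 and 9.51 at 750 ppm and 10.23, 10.30 and 10.19 at 2500 ppm. Its 750 ppm arrays were lowest, by a narrow margin to Control (contrast -0.43, SE 0.077, adjusted p = 0.175). Nxph3, a neurexin ligand of these neurons, was at -0.32 (adjusted p = 0.292), with the arrays of 750 ppm overlapping those of 2500 ppm. Inpp4b, a phosphoinositide phosphatase, ran the other way, with 7.82, 7.63 and 7.61 at 750 ppm, 7.27 to 7.46 in Control and 6.70 to 7.30 at 2500 ppm (0.56, SE 0.130, adjusted p = 0.274). In whole cortex, fewer cells of a type and less RNA per cell cannot be told apart.

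The next lower gene by p was Npas2, a bHLH-PAS transcription factor that can stand in for CLOCK as the partner of BMAL1. It was 10.75, 10.62 and 10.54 in Control, 10.18, 10.42 and 10.28 at 750 ppm and 11.08, 11.15 and 11.02 at 2500 ppm. The 3 groups did not overlap at all: 750 ppm was lowest, Control in the middle and 2500 ppm highest. The contrast was -0.57 (SE 0.071, adjusted p = 0.0765), from -0.34 against Control and -0.79 against 2500 ppm, and it passed without replicate 3 of 750 ppm (adjusted p = 0.022). Npas2 lies on chromosome 9 from 48959225 to 49138036.

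Clock genes were mostly below the average of the other groups. Of 19 measured clock genes, 7 were above the average of the other groups (56.7% of all genes) and 12 below, with a median of -0.13 (-0.17 to -0.08 over the alternatives), and the 750 ppm mean was below both other means in 12, against 26.8% of all genes. Before adjustment 5 passed as lower and 0 as higher (3.47% and 6.15% of all genes), and 0 passed after adjustment in limma. Nr1d1 was 7.15, 6.88 and 7.22 in Control, 6.76, 6.96 and 6.73 at 750 ppm and 7.40, 7.71 and 7.84 at 2500 ppm. The 750 ppm and Control arrays overlapped, and 2500 ppm was above both (contrast -0.55, SE 0.112, adjusted p = 0.224). Dbp, a clock-driven PAR bZIP factor, was 8.07, 8.10 and 8.01 at 750 ppm, 8.05 to 8.23 in Control and 8.36 to 8.49 at 2500 ppm (-0.23, SE 0.057, adjusted p = 0.296). Rora, the activating receptor that competes with REV-ERB, was 7.26, 7.60 and 7.22 at 750 ppm, 7.80 to 7.89 in Control and 7.53 to 8.14 at 2500 ppm (-0.49, SE 0.129, adjusted p = 0.339). The core genes Clock (0.03) and Bmal1 (0.02) had contrasts near 0. The time of day of dissection is not given in the sources used here. Of the 23 listed clock genes 18 matched promoter windows, 20 in all, and 5 windows held the E-box (Bhlhe40, Bhlhe41, Ciart, Nr1d1 and Tef). The half-site AGGTCA or its reverse complement, to which REV-ERB and ROR receptors bind, was in 2 of the 20 windows (Bmal1 and Nr1d2) and in 16.2% of all windows.

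Genes of the oligodendrocyte lineage were mostly lower at 750 ppm. Of 11 measured genes, 9 were below the average of the other groups, with a median of -0.20 (-0.23 to -0.11 over the alternatives), and 8 had the 750 ppm mean below both other means (26.8% of all genes). Before adjustment 4 passed as lower and 1 as higher (3.47% and 6.15% of all genes), and 0 passed after adjustment in limma. Bcas1, a protein of early myelinating oligodendrocytes, was 10.63, 10.75 and 10.16 in Control, 9.77, 9.53 and 9.52 at 750 ppm and 10.95, 10.37 and 10.13 at 2500 ppm. All 3 arrays of 750 ppm were below the rest, while Control and 2500 ppm overlapped (contrast -0.89, SE 0.183, adjusted p = 0.224). Sox10, the transcription factor that runs the lineage, was 8.34, 8.15 and 8.41, then 7.94, 7.73 and 7.92, then 8.39, 8.05 and 8.35 in the same order of groups (-0.42, SE 0.094, adjusted p = 0.265). Nkx2-2, another factor of the lineage, was at -0.25 (SE 0.085, adjusted p = 0.41) with overlapping arrays.

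Mbp, the myelin basic protein gene, had the largest contrast of the lineage genes named here, though it was uneven across its 3 probe sets. Probe set 1368810_a_at was 10.31, 10.36 and 9.21 in Control, 9.17, 8.70 and 8.35 at 750 ppm and 10.51, 9.60 and 9.43 at 2500 ppm (contrast -1.16, adjusted p = 0.339). All 3 arrays of 750 ppm were lowest, but by only a small step from Control replicate 3. Probe sets 1387341_a_at (-0.42) and 1383479_at (-0.20) overlapped between groups. Zfp488, a zinc finger factor that promotes oligodendrocyte differentiation and was named by rule, was 8.07, 8.10 and 8.07 in Control, 7.66, 7.47 and 7.71 at 750 ppm and 8.21, 7.94 and 8.17 at 2500 ppm (-0.48, SE 0.075, adjusted p = 0.16). Fa2h, an enzyme of myelin lipids, and Cd9, a tetraspanin of myelin and other cells, were also lowest on all 3 arrays of 750 ppm, at -0.40 and -0.49 (adjusted p = 0.315 and 0.265). Mbp, Fa2h and Cd9 were singled out after their values were seen.

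Cldn11 was among the 2 lineage genes above the average of the other groups. This claudin of myelin, which is also made in the arachnoid, was 10.34, 9.70 and 8.53 in Control, 10.76, 10.66 and 10.70 at 750 ppm and 10.27, 10.23 and 10.52 at 2500 ppm (contrast 0.77, SE 0.309, adjusted p = 0.466). Its 750 ppm arrays were all highest, and its spread lay in the Control arrays, which ran in the same order as the means of the meningeal markers given with those genes. A dim second probe set of Cldn11, 1369609_at, below the filter, was at 0.025 with overlapping arrays. The summed lineage list overlapped between groups, at -0.04, -0.15 and -0.10 for 750 ppm, -0.23 to 0.15 for Control and 0.02 to 0.24 for 2500 ppm.

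**Figure D3:**
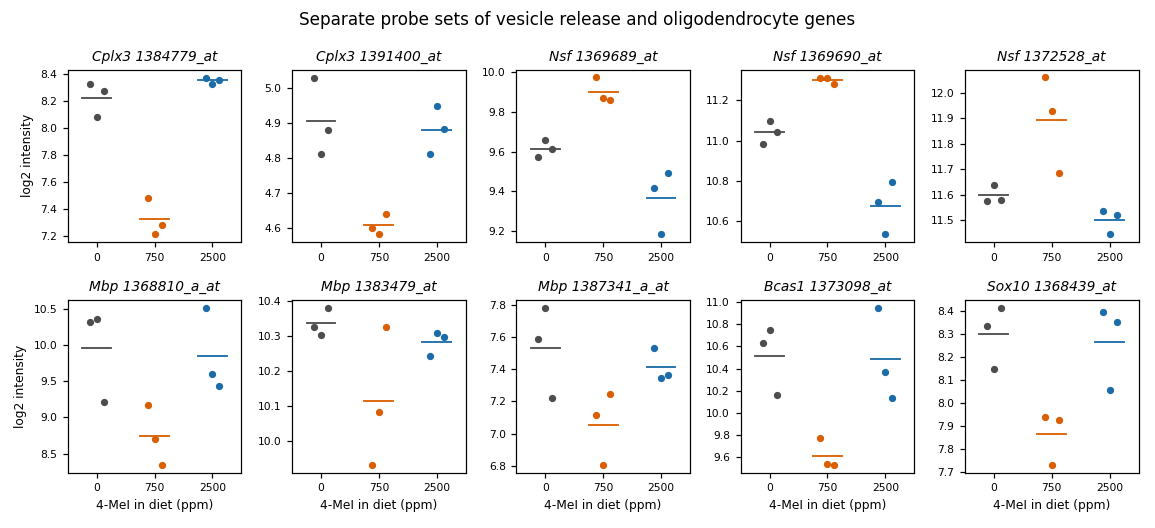
Log2 intensity per array for separate probe sets of Cplx3 and Nsf (vesicle release) and of Mbp, Bcas1 and Sox10 (oligodendrocyte lineage), with group means as bars. The vertical axes differ between panels and do not start at 0. Both Cplx3 probe sets are lowest and all 3 Nsf probe sets highest at 750 ppm, while for Mbp only 1368810_a_at has the 750 ppm arrays clear of the others.

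The remaining lower genes had varied roles and missed the adjusted threshold, with adjusted p from 0.0765 to 0.207. Arhgef26, an exchange factor for the GTPase RhoG, was 9.57, 9.45 and 9.60 in Control, 9.08, 9.32 and 9.27 at 750 ppm and 9.93, 10.08 and 10.14 at 2500 ppm (contrast -0.58, SE 0.074). As for Npas2, the 3 groups were fully separate with 2500 ppm highest, and its second probe set, 1393437_at, showed the same order with -0.41. Brinp1, a neuronal protein that restrains cell cycle entry, was 11.16, 11.03 and 11.13, then 10.70, 10.88 and 10.80, then 11.34, 11.20 and 11.31 (-0.40, SE 0.061). Pmepa1, an inhibitor of TGF-beta signalling, was 11.27, 11.08 and 11.37, then 10.69, 10.78 and 10.82, then 11.12, 11.17 and 11.27 (-0.45, SE 0.072). In Pmepa1 the 750 ppm arrays stood below Control and 2500 ppm groups that overlapped each other.

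Ryr2, the ryanodine receptor that releases calcium from the endoplasmic reticulum, was 10.33, 10.38 and 10.22 in Control, 9.75, 10.04 and 10.09 at 750 ppm and 10.46, 10.56 and 10.67 at 2500 ppm (contrast -0.48, SE 0.086), and its second probe set was at -0.37 with overlapping arrays. Atp2b1, the plasma membrane calcium pump, was lowest at 750 ppm on all 3 of its probe sets, at -0.14, -0.22 and -0.22 (adjusted p = 0.455, 0.362 and 0.306, singled out after its values were seen). Cox6b2 and Cox6a2, tissue-restricted forms of cytochrome c oxidase subunits, were at -1.03 (SE 0.200) and -0.61 (SE 0.112). Cox6b2 was 9.78, 10.16 and 9.39 in Control, 8.93 to 9.07 at 750 ppm and 10.49, 10.59 and 9.77 at 2500 ppm, so its 750 ppm pups were tightly grouped under a scattered Control group. Dmgdh, the mitochondrial dimethylglycine dehydrogenase, was at -0.57 (SE 0.095) from a low level of 6.39 in Control. Pnlip, annotated as pancreatic lipase, was 8.99, 8.65 and 8.44, then 8.03, 7.67 and 7.42, then 9.01, 8.47 and 8.47 (-0.96, SE 0.175). Ankrd12, an ankyrin repeat protein of the nucleus, was at -0.65 (SE 0.119), with -0.20 on its other probe set.

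The widely expressed respiratory chain genes lay on the other side by small amounts. Of 37 measured, 31 were above the average of the other groups and the 750 ppm mean was above both others in 29, against 36.4% of all genes. The median was 0.06, and it was 0.02 after median-centring, so the size depends on the scaling. Ndufv2, a subunit of complex I, was 12.10, 12.15 and 12.03 in Control, 12.26, 12.24 and 12.22 at 750 ppm and at most 12.12 at 2500 ppm (contrast 0.17, SE 0.050, adjusted p = 0.379). Ndufs3, Ndufs7 and Atp5f1b, subunits of complex I and of ATP synthase, were at 0.17, 0.14 and 0.11. Before adjustment 5 passed as higher and 0 as lower (6.15% and 3.47% of all genes), and 0 passed after adjustment in limma.

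The named higher genes other than C1ql3 had adjusted p between 0.142 and 0.224. Trib2, a pseudokinase that acts as a scaffold in protein degradation, was 8.22, 8.21 and 8.12 in Control, 8.75, 8.45 and 8.60 at 750 ppm and 8.04, 8.11 and 8.13 at 2500 ppm (contrast 0.46, SE 0.068). Its second probe set was at 0.27 with overlapping arrays. Sorcs3, a sorting receptor at the postsynapse, was 8.25, 8.37 and 8.38, then 8.82, 8.58 and 8.52, then 8.10, 8.02 and 8.04 (0.45, SE 0.072), so its 3 groups were separate with 2500 ppm lowest. Homer2, a scaffold that ties glutamate receptors to calcium stores, was 8.88, 8.94 and 8.55, then 9.34, 9.19 and 9.18, then 8.50, 8.81 and 8.80 (0.49, SE 0.104). In Homer2 the Control and 2500 ppm arrays overlapped.

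Ogt, the enzyme that adds O-GlcNAc to proteins, was 7.89, 8.08 and 7.90 in Control, 8.44, 8.28 and 8.68 at 750 ppm and 8.01, 7.94 and 8.08 at 2500 ppm (contrast 0.48, SE 0.088). Its other probe set, 1388758_at, was at -0.02 with overlapping arrays. Arglu1, a splicing and transcription cofactor, was at 0.39 (SE 0.070), with 0.19 on its second probe set. Ppfibp1, a liprin of cell junctions, was at 0.43 (SE 0.077), while a dim probe set below the filter was at -0.07. Prkd3, a protein kinase D, was at 0.41 (SE 0.078), and its other probe sets were at 0.12 and -0.05 with overlapping arrays. Dmrtc1c1 was at 0.63 (SE 0.119), and Lrrc17, a secreted leucine-rich repeat protein, at 0.62 (SE 0.121). Lcat, the enzyme that esterifies cholesterol on lipoproteins, was 8.06, 8.08 and 7.80, then 8.72, 8.44 and 8.56, then 8.15, 7.88 and 8.31 (0.53, SE 0.108).

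Enzymes and carriers of retinoic acid were among the higher genes. Adh1c, an alcohol dehydrogenase that can oxidise retinol, was 6.94, 6.80 and 6.94 in Control, 7.90, 7.69 and 7.63 at 750 ppm and 7.06, 7.37 and 7.56 at 2500 ppm. The 750 ppm arrays were highest, narrowly above 2500 ppm, which was itself above Control (contrast 0.63, SE 0.108, adjusted p = 0.175), and a second probe set was at -0.05. Crabp2, a retinoic acid carrier, was 8.23, 7.73 and 7.44, then 9.18, 8.94 and 8.83, then 8.45, 8.78 and 8.70 (0.76, SE 0.160, adjusted p = 0.23). Cyp26a1, which degrades retinoic acid, was 7.06, 6.83 and 7.09, then 7.66, 7.27 and 7.12, then 6.77, 6.62 and 6.67, with 2500 ppm lowest (0.51, SE 0.114, adjusted p = 0.265). Aldh1a2, which makes retinoic acid and is typical of the meninges, was 8.61, 8.54 and 8.43 in Control, 9.42, 9.24 and 9.18 at 750 ppm and 9.11, 9.24 and 9.36 at 2500 ppm, so the exposed groups overlapped (0.40, SE 0.077, adjusted p = 0.207). Of 18 measured genes of retinoid handling, 9 were above and 9 below, with a median of 0.06 that ran from -0.04 without replicate 2 of 750 ppm to 0.25 without replicate 3 of 750 ppm. Before adjustment 6 passed as higher and 1 as lower (6.15% and 3.47% of all genes). Aldh1a2 and Crabp2 are also on the meningeal list.

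Meningeal fibroblast genes were the list with the highest median. Of 27 measured, 26 were above the average of the other groups, with a median of 0.54 (0.40 to 0.73 over the alternatives), and 23 were higher at an unadjusted p under 0.05 (6.15% of all genes), although 0 passed after adjustment in limma. The 750 ppm mean was above both other means in 22 (36.4% of all genes), and the 3 arrays of 750 ppm were above all others in 6 (2.36%). Col1a2, a chain of type I collagen, was 10.82, 10.19 and 9.74 in Control, 11.67, 11.64 and 11.32 at 750 ppm and 10.79, 11.14 and 11.30 at 2500 ppm (contrast 0.88, SE 0.211, adjusted p = 0.292). Slc22a6, an organic anion transporter, was 8.37, 8.13 and 7.80, then 8.96, 8.81 and 8.84, then 8.34, 8.66 and 8.74 (0.53, SE 0.126, adjusted p = 0.286). In both, the lowest array of 750 ppm was only just above replicate 3 of 2500 ppm, and Control replicate 3 was lowest of all. The list mean per array was 0.50, 0.36 and 0.29 at 750 ppm, -0.01, 0.24 and 0.35 at 2500 ppm and -0.14, -0.58 and -1.01 in Control, so the list as a whole overlapped between the exposed groups. The median difference was 1.02 from Control and 0.17 from 2500 ppm. Whether these arrays carried more meningeal tissue or more RNA per meningeal cell cannot be told apart.

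Matrix, endothelial and macrophage genes were mostly above the average of the other groups as well, chiefly through their distance from Control. Their median differences were 0.38, 0.26 and 0.24 from Control and 0.049, 0.014 and 0.087 from 2500 ppm. The 750 ppm mean was above both other means in 27 of 50, 9 of 18 and 13 of 17, against 36.4% of all genes. Of 50 extracellular matrix genes, 38 were above the average of the other groups, with a median of 0.20, and 24 were higher and 3 lower by the unadjusted p (6.15% and 3.47% of all genes). Col6a1, a chain of type VI collagen, was at 0.34 (SE 0.068, adjusted p = 0.224), while Fbln2, a fibulin, and Timp3, an inhibitor of matrix proteases, were at -0.32 and -0.23 (adjusted p = 0.339 each). Of 18 endothelial genes, 15 were above, with a median of 0.12 (0.09 without Control replicate 3). Slco1a4, an organic anion transporter of brain capillaries, was 7.83, 7.52 and 7.43 in Control, 8.49, 8.34 and 8.23 at 750 ppm and 7.94, 8.15 and 8.14 at 2500 ppm (0.52, SE 0.10, adjusted p = 0.207). The tight junction gene Cldn5 was at 0.31 with all 3 arrays of 750 ppm highest, and Emcn and Kdr were at 0.45 and 0.25 with overlapping arrays. Of 17 microglial and macrophage genes, 16 were above, with a median of 0.17 that was 0.35 without replicate 3 of 750 ppm. Their 4 leading genes were C1qc (0.30), C1qb (0.25), Mrc1 (0.75) and Lyve1 (0.80), the complement subunits and 2 receptors of macrophages at the brain's borders. All arrays of 750 ppm lay outside the others in 0 of the 17, near the share of all genes (2.36% above and 1.47% below). None of these genes passed after adjustment in limma, while 4 endothelial and 6 macrophage genes were higher at an unadjusted p under 0.05 (6.15% of all genes) and 0 lower (3.47%). The meningeal list was higher on the same arrays, with the means given for it, and its part in these values was not tested.

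**Figure D4:**
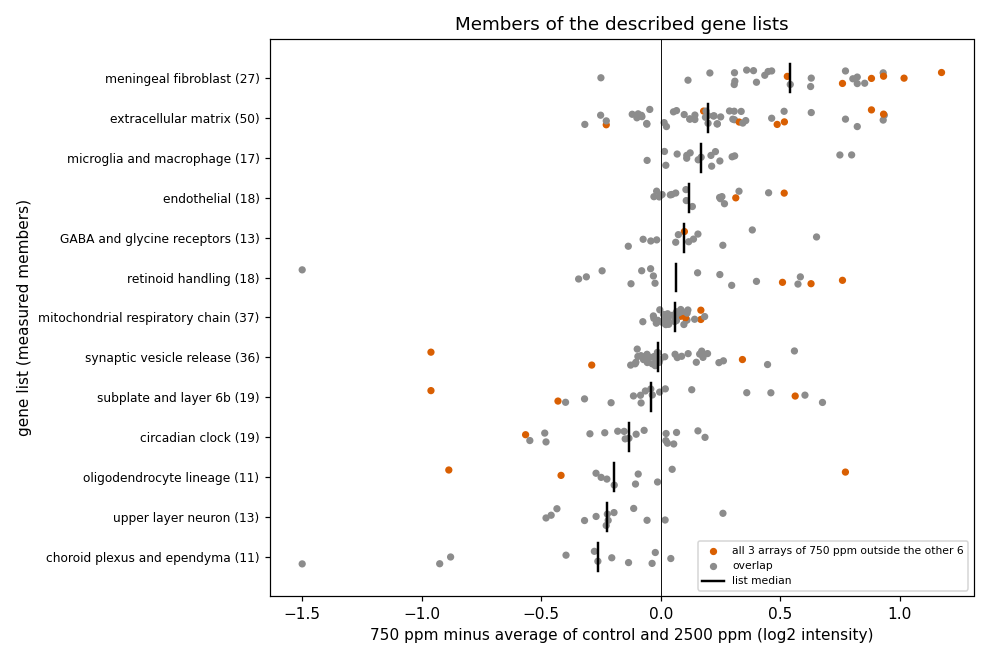
Each point is a measured gene of a list, placed at its 750 ppm minus average of Control and 2500 ppm contrast in log2 intensity, with the list median as a black bar. Orange points have all 3 arrays of 750 ppm outside the 6 others. The meningeal list is centred at 0.54 and the choroid plexus list at -0.26, and most lists hold orange points on 1 side or none.

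Choroid plexus genes had a negative contrast, mostly through their distance from 2500 ppm. Of 11 measured, 10 were below the average of the other groups, with a median of -0.26. The 3 arrays of 750 ppm lay outside the others in 0, near the share of all genes (2.36% above and 1.47% below). The median difference was 0.0030 from Control and -0.53 from 2500 ppm. The 750 ppm mean was below both other means in 5 and above both in 0, against 26.8% and 36.4% of all genes. Before adjustment 5 passed as lower and 0 as higher (3.47% and 6.15% of all genes), and 0 passed after adjustment in limma. Ttr, the transthyretin gene of the choroid plexus, was 7.34 to 8.17 in Control, 9.29, 10.01 and 7.91 at 750 ppm and 14.19, 13.97 and 12.06 at 2500 ppm. Its 750 ppm mean was 1.33 above Control and 4.33 below 2500 ppm, so it lay between them although the contrast was -1.50 (SE 0.540, adjusted p = 0.429). Tmem212, Kcne2 and Foxj1, genes of ciliated and choroid cells, were at -0.26, -0.28 and -0.40 with overlapping arrays.

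Upper layer neuron genes were lower at 750 ppm with overlapping arrays. Of 13 measured, 11 were below the average of the other groups, with a median of -0.22 (-0.27 to -0.16 over the alternatives), and the 750 ppm mean was below both others in 10 (26.8% of all genes). Before adjustment 6 passed as lower and 0 as higher (3.47% and 6.15% of all genes), and 0 passed after adjustment in limma. Rorb, the receptor that marks layer 4, was 9.50, 9.02 and 9.45 in Control, 8.29, 8.98 and 8.61 at 750 ppm and 8.66, 9.10 and 8.91 at 2500 ppm (contrast -0.48, SE 0.165, adjusted p = 0.411). Inhba, an activin subunit, was at -0.46, the transcription factor gene Pou3f3 at -0.20 and Nrgn, a calmodulin-binding postsynaptic protein, at -0.27. The contrast of Nrgn came mostly from 2500 ppm, with means of 11.18 in Control, 11.12 at 750 ppm and 11.60 at 2500 ppm. For the list, the median difference was -0.10 from Control and -0.27 from 2500 ppm. The list mean was -0.28, -0.12 and -0.02 on the 750 ppm arrays, -0.05 to 0.06 in Control and 0.04 to 0.20 at 2500 ppm.

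GABA-A and glycine receptors depolarise many immature neurons. Of 13 measured genes of GABA and glycine receptors, GABA-B included, 9 were above the average of the other groups, near the 56.7% of all genes. Their median was 0.10 (0.05 without Control replicate 3). By the unadjusted p 3 were higher and 1 lower, against 6.15% and 3.47% of all genes. Glra2, the glycine receptor subunit of immature neurons, was 11.45, 11.56 and 11.64 in Control, 11.81, 11.77 and 11.50 at 750 ppm and 11.06, 11.09 and 11.05 at 2500 ppm (contrast 0.38, SE 0.077, adjusted p = 0.216). Control and 750 ppm overlapped and 2500 ppm was lowest. On another probe set, 1371153_a_at, singled out after its values were seen, the 750 ppm arrays were 9.13, 8.93 and 9.09 and lay above all others (0.56, adjusted p = 0.127). Gabra2 and Gabrg1, subunits of the GABA-A receptor, were at 0.65 and 0.26, and Gabbr2, of the GABA-B receptor, at -0.14, all with overlapping arrays.

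**Figure D5:**
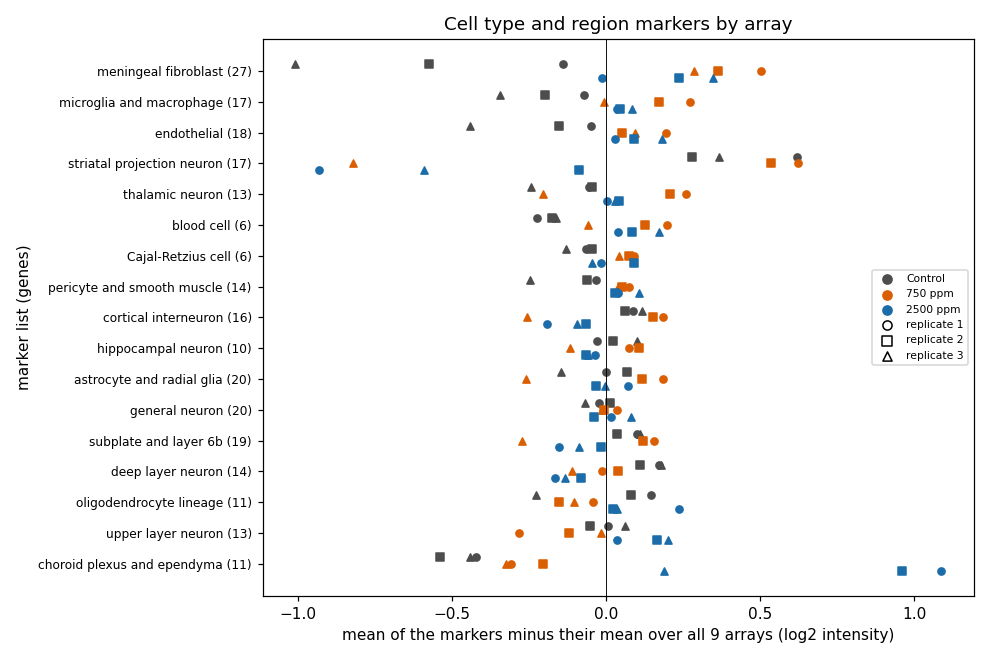
Mean level of each marker list per array, relative to its mean over the 9 arrays, in log2 intensity. Colour gives the group and shape the replicate number. Control replicate 3 is lowest for meningeal markers (-1.01), replicate 3 of 750 ppm lies with the 2500 ppm arrays for striatal markers (-0.82), and the 2500 ppm arrays are highest for choroid plexus markers (0.19 to 1.09).

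Several other lists had medians within 0.05 of 0: the general neuron markers, the astrocyte and radial glia markers, the glutamate receptors, the potassium channels, the immediate early genes, the cell cycle genes and the chromatin regulators. When single arrays were left out, the astrocyte median ran from -0.05 to 0.14 (without replicates 1 and 3 of 750 ppm) and the cell cycle median from -0.11 to 0.10 (without the same arrays). Of 13 thalamic neuron genes, 11 were above the average of the other groups, with a median of 0.16 (0.065 to 0.29 without replicates 1 and 3 of 750 ppm). By the unadjusted p 5 of them were higher and 1 lower, against 6.15% and 3.47% of all genes. Of 31 heat shock genes 26 were above, against 56.7% of all genes, with a median of 0.05 (0.0080 without Control replicate 3). Of 22 neuropeptide genes 13 were above, near the share of all genes, with a median of 0.11 (-0.0092 to 0.17 without replicates 1 and 3 of 750 ppm). The 3 arrays of 750 ppm were above all others in 1 astrocyte gene and below all others in 1 immediate early gene and 1 potassium channel gene, among 20, 25 and 27 measured. Over all genes, 2.36% had them above all others and 1.47% below. The median of the 17 striatal genes was 0.17, and it ran from -0.09 without replicate 1 of 750 ppm to 0.59 without replicate 3 of 750 ppm.

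Separate probe sets of the same gene can be set side by side, although they share the RNA of each pup. Of the 578 genes, 265 had more than 1 probe set tested, and in 183 (69.1%) all of them had contrasts of the same sign, against 2005 of 3340 (60%) of all genes with several probe sets. The 265 genes were chosen through at least 1 of these same probe sets. The higher share can follow from that choice and is no separate support for the members. In 20 genes at least 2 probe sets had the 3 arrays of 750 ppm outside the others in the same direction, and in 0 genes in opposite directions. Beside Nsf, Arhgef26 and Atp2b1, these included Tfap2b, a transcription factor gene at 0.66 on each of 2 probe sets, Spsb1, a ubiquitin ligase adaptor at -0.29 and -0.31, and Cd47, the surface protein that inhibits engulfment by macrophages, at -0.16 and -0.18. Scamp1, a membrane protein of secretory vesicles, was at 0.26 and 0.11, and Asic2, an acid-sensing ion channel, at 0.27 and 0.13. These genes were singled out after their values were seen, and none passed after adjustment in limma.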

How the data were processed

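Total RNA from the cortex of 9 pups was labelled with the 3' IVT Express kit, per the labels' protocols. The authors deposited log2 intensities made with affy and RMA, per the submitters' processing notes; versions are not given in the sources used here. RMA equalises the arrays' distributions, so a shift of total RNA would not be seen. Control probe sets (57) were set aside, and the 30% of the others with the lowest mean (9313, mean under 6.35) were left out of the fit. A limma 3.58.1 model (R 4.3.3, statmod 1.5.0) with 1 mean per group was fitted to 21729 probe sets and tested on simulated data. Tests were two-sided and adjusted by Benjamini-Hochberg, with a threshold of 0.05. Each pup is from its own litter, so p-values rest on the spread between litters. With 3 arrays against 6, the smallest p an exact permutation test of a single value can give is 0.024.

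Symbols came from the platform annotation (1 symbol for 20826 probe sets, several for 436, none for 9780), and 20758 were matched to GRCr8 by Entrez identifier. Lists used the probe set of highest mean per gene. Named genes were those past the threshold with the 750 ppm mean outside both others, filled to 12 per direction by the smallest p among probe sets with the arrays of 750 ppm outside all others and a distance of at least 0.3. Up to 4 members of each described list were named by p. Members, lists and tests were chosen with earlier results of these data known. Alternatives were other filters, scalings, variance models, thresholds, probe sets and references, a replicate block, and arrays left out.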

Additional observations from a re-analysis of the deposited data

Results flagged for a closer look

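The 5 prime beta-actin control probe set, which belongs to no gene comparison, was higher on all 3 arrays of 750 ppm (13.77, 13.78 and 13.85) than on the 6 others (13.60 to 13.75), by 0.129 on the log2 scale against the average of the other groups. The 3 prime beta-actin probe set overlapped between groups, with a difference of 0.023. The 3 prime minus 5 prime difference of GAPDH also overlapped, at -0.07, -0.03 and -0.06 on the 750 ppm arrays and -0.06 to 0.05 on the others. Hexokinase ran the other way: its 5 prime probe set was lower on all 3 arrays of 750 ppm, by -0.18 against the average of the others, and its 3 prime minus 5 prime difference was 0.080 higher with overlapping arrays. The part of RNA integrity in the gene results was not tested.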

How the results depend on the processing

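With 3 arrays a group, the number of pups limits the precision, and replicate 3 of 750 ppm limits it most. The contrast called 3 probe sets, from 0 (without replicate 2 of 750 ppm) to 394 (without replicate 3 of 750 ppm, 295 higher and 99 lower) when single arrays were left out. The stricter test of both differences called 2, from 0 to 12, and the arrays of 750 ppm lay outside all others for 792 probe sets, from 908 to 3423 with fewer arrays to clear. Without both replicate 3 of 750 ppm and Control replicate 3, these counts were 564, 36 and 4590. The contrast called 10 with a variance trend and robust fit, 364 with array weights, 9 at an adjusted p under 0.10 and 2221 at an unadjusted p under 0.05, where the stricter test called 425. With 1 probe set per gene the stricter test called 1 and 445 genes had the arrays of 750 ppm outside. What the replicate numbers mean is not given in the sources used here. Of same-numbered pairs, 3 of 9 had correlated deviations over 0.1 (-0.21 to 0.31), and 4 of 9 arrays correlated best with their own number. So few pairs cannot settle whether equal numbers share handling. With the replicate block the contrast called 3 probe sets, 2 of them shared, and the stricter test called 2, of which 1 was shared. Centring the arrays and a second quantile normalization moved the median contrast by -0.038 and -0.013.

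Signs turned in 14 of the gene values. The contrast of Ogt was -0.017 on its other probe set, which is also the one used with 1 probe set per gene. Other probe sets also turned C1ql3 (-0.042), Adh1c (-0.045), Ppfibp1 (-0.068), Prkd3 (-0.047), Kdr (-0.057) and Timp3 (0.024). Those of Ppfibp1 and Kdr were dim, below the filter. Cplx1 1398357_at went to 0.0016 against a straight line between the doses, and to 0.0024, 0.016 and 0.0092 without replicates 1 and 2 of 750 ppm and replicate 3 of 2500 ppm. Cplx1 1369811_at went to 0.018 without replicate 2 of 750 ppm and Cplx2 to 0.049 without replicate 1, and without replicate 3 of 750 ppm these 3 probe sets were at -0.084, -0.063 and -0.18. The cause was not tested. Of the other gene values 1281 kept direction and side of the threshold, 82 newly passed and 12 no longer passed.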

Other observations

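Without replicate 3 of 750 ppm, 12 probe sets differed from both other groups in the same direction at an adjusted larger p under 0.05 in limma, 10 higher and 2 lower, and the lower ones were Cplx3 and 1383612_at. Unc13c, a priming factor for synaptic vesicles, had a mean of 9.39 on the other 2 arrays of 750 ppm, against 8.41 in Control and 8.35 at 2500 ppm, while replicate 3 was at 8.04. Trhr, the receptor for thyrotropin-releasing hormone, was 1.38 above Control and 2.18 above 2500 ppm, with replicate 3 at 6.48 beside a Control mean of 7.20. Cdhr1, a photoreceptor-type cadherin, was at 10.8 against 9.23 and 7.97, with replicate 3 at 8.10. Eya2, a transcriptional cofactor, was at 8.77 against 7.62 and 7.61, with replicate 3 at 7.54. Nrn1, a neuronal growth protein, was at 10.4 against 9.55 and 9.37, with replicate 3 at 9.47. Ap1s2, a clathrin adaptor subunit, was higher by 0.66 than Control on each of 2 probe sets. These genes were chosen by leaving that array out, so its distance from the other 2 arrays of 750 ppm is a result of the choice. Striatal markers were at -0.82 on that array and 0.62 and 0.53 on the other 2 arrays of 750 ppm, and thalamic markers at -0.20 against 0.26 and 0.21. Their part in these values was not tested.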
